A study of Mus musculus with 12 samples.

Results

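The sensing of nucleic acids in the wrong place was examined through 10 genes in cultured CT26 cells, a mouse colorectal carcinoma line of BALB/c origin, with and without a knock-out of Mll3, the older name of the histone H3 lysine methyltransferase gene Kmt2c. The genes were chosen by name and role, with earlier results of these data known. They are the DNA sensor Cgas and its adaptor Sting1, the RNA sensors Ddx58 (RIG-I), Ifih1 (MDA5) and Tlr3, and the adaptor Mavs. The others are the kinase Tbk1, the transcription factor Irf3 and the nucleic acid modifying enzymes Trex1 and Adar. Of the 10, 9 were found among the 17718 genes of the count table (Sting1 under its older symbol Tmem173) and all 9 passed the filter on low counts, which left 13013 genes. Trex1, a DNA exonuclease, is not analysed here. Bulk polyA RNA-seq was compared between 3 Mll3KO libraries, whose columns carry the names sg1, sg2 and sg3, and 3 Mll3WT libraries numbered as replicates 1, 2 and 3. All 6 came from CT26 cultures that bear 1 batch date and for which no agent is named, and the labels do not say whether the knock-out cells are a pool or a clone, nor whether the sg numbers are guides or replicates. The series also holds CUT&Tag and tumour single-cell samples, which are not analysed here.

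Cells read foreign or misplaced nucleic acid through a small number of receptors. The cyclic dinucleotide made by cGAS on DNA activates STING, RIG-I and MDA5 on viral or unmodified RNA activate the mitochondrial adaptor MAVS, and TLR3 reads double-stranded RNA in endosomes. These routes converge on the kinase TBK1, which phosphorylates IRF3 and so induces interferon beta. ADAR and TREX1 act against the pathway by editing self RNA and by degrading self DNA, and several of the sensors are themselves induced by interferon.

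All 3 RNA sensors, Cgas and Adar were lower in Mll3KO cells, Sting1 and Mavs were higher, and Irf3 did not pass the test. Of the 9 genes tested, 2 rose, 6 fell and 1 did not pass (edgeR quasi-likelihood test, adjusted p under 0.05). Across all 13013 genes 66.2% passed, 33.1% of them higher and 33.2% lower as shares of all genes tested, so that a call by itself does not set a gene apart in this comparison. The groups did not overlap for 8 of the 9, against 68.7% of all genes. The median log2 fold change, here always Mll3KO over Mll3WT, was -0.66 over the 9 and 0.02 over all genes. The median of its size regardless of sign was 0.66 over the 9 and 0.41 over all genes.

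The targeted gene, Kmt2c, stood at 16.0, 11.2 and 14.8 CPM in Mll3KO libraries and at 24.9, 26.2 and 25.0 CPM in Mll3WT libraries (log2 fold change -0.87, SE 0.129, edgeR adjusted p = 4.33e-08), where CPM is the count relative to the library total after scaling with TMM factors. Total counts were 9786242 to 11129754 in Mll3KO and 9559658 to 13406013 in Mll3WT libraries. Of 12 epithelial markers 3 were tested and all 3 (Krt8, Krt18 and Krt20) were higher in Mll3KO, as were 33.1% of all genes tested. Krt8 had 16 to 37 counts per Mll3KO library and 1 to 2 per Mll3WT library. It passed the filter only through the Mll3KO libraries, so it could only be called higher. The 5 of the 12 with a row in the count table summed to 167 to 182 CPM in Mll3KO against 50.8 to 53.0 CPM in Mll3WT. Of 10 macrophage and dendritic cell markers, 8 had a row and summed to 47.2 to 55.6 CPM in Mll3KO and 34.2 to 38.9 CPM in Mll3WT. Of the 5 tested, 3 were higher and 1 lower. The lower one, Csf1r, had 57 to 79 counts per Mll3KO library and 131 to 197 per Mll3WT library. Cd68 had 50 to 56 and 39 to 56, and Cd14 255 to 275 and 148 to 237. Lyz2 had 87 to 100 counts per Mll3KO library and 2 to 8 per Mll3WT library, and Itgax 14 to 22 and 0. Both also passed the filter only through Mll3KO libraries. Ptprc, the pan-leukocyte marker, had 2 to 4 counts per Mll3KO library and 1 count per Mll3WT library. Lymphocyte markers (2 of 8 with a row) summed to 0.27 to 1.43 CPM in Mll3KO and 0 to 0.732 CPM in Mll3WT, and endothelial markers (4 of 5) to 2.25 to 3.50 CPM in Mll3KO and 0.970 to 1.99 CPM in Mll3WT. Fibroblast markers (5 of 6) summed to 1370 to 1420 CPM in Mll3KO and 962 to 994 CPM in Mll3WT, with 4 of 5 tested higher, and the part of any marker shift in the results was not tested.

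Promoter sequences are shown for the 6 genes that fell and have a window, and for Mavs, which rose and carries no interferon-response motif. Of the 6, Ddx58 and Ifih1 carry a full interferon-response core, Tlr3 and Adar only a shorter one, and Cgas and Tbk1 none. The RefSeq windows run from 250 bases before a transcript start to 50 bases after it (GRCm38.p6, the assembly of mm10), and 8 of the 9 genes had at least 1, giving 10 windows. Capitals mark matches to the interferon-stimulated response element core, GAAA, any 2 bases (NN) and GAAA again, or to the shorter interferon regulatory factor core AANNGAAA, read on both strands; where the 2 motifs overlap the capitals run together. Each line is written 5′ to 3′ on the strand of the gene.
Ifih1, chr2:62646206-62646505, minus strand: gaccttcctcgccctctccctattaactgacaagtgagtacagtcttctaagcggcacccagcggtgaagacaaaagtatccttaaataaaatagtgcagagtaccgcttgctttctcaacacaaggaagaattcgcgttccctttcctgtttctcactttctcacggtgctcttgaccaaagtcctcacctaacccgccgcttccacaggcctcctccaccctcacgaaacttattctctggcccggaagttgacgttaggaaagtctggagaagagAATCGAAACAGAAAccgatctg
Ddx58, chr4:40239776-40240075, minus strand: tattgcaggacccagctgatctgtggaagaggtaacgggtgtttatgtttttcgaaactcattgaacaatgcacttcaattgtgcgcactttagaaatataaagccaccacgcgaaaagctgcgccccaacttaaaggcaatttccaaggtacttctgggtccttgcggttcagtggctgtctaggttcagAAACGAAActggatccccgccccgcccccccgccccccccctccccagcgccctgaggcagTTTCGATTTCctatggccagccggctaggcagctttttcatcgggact
Tlr3, chr8:45410331-45410630, minus strand: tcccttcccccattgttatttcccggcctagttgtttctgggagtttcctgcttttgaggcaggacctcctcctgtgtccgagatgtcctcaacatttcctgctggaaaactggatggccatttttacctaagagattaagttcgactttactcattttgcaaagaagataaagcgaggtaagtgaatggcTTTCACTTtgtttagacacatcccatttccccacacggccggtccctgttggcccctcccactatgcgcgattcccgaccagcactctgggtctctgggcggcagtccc
Adar, chr3:89730468-89730767, plus strand, the most downstream of its 3 windows: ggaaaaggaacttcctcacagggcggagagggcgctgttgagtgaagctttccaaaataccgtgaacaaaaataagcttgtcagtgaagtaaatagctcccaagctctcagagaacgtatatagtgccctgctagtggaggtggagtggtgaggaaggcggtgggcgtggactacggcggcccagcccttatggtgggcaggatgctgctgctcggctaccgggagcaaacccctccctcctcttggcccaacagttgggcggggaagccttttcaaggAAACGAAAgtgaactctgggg
Cgas, chr9:78443188-78443487, minus strand: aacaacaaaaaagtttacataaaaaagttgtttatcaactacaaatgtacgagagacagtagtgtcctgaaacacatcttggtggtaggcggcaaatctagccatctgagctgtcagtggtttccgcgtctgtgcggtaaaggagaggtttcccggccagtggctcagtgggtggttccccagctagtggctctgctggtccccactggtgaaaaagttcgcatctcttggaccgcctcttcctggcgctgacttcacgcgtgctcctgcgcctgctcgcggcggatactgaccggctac
Tbk1, chr10:121586745-121587044, minus strand: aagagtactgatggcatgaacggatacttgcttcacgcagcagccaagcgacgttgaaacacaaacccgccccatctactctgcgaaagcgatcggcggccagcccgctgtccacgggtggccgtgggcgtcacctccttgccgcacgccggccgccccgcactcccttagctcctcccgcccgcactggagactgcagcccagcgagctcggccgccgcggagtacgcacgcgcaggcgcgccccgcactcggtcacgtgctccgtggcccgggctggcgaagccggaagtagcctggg
Mavs, chr2:131233813-131234112, plus strand: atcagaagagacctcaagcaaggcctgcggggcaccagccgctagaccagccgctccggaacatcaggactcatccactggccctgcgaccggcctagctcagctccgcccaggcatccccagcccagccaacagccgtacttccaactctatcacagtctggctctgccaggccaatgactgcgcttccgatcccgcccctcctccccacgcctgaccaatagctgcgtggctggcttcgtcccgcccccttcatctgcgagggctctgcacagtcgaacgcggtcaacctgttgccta

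The full core was found in the windows of Ddx58, from base 3 to 12 after the start on the opposite strand, and of Ifih1, from base 33 to 42 on the strand of the gene. It occurs in 3.44% of the 32851 promoter windows of the genome set. The shorter core AANNGAAA was found in 4 genes, Ddx58, Ifih1, Tlr3 and Adar, and occurs in 23.9% of all windows. The full core contains the shorter one, so Ddx58 and Ifih1 had to hold a match to it. Ddx58 held another match from base -59 to -52 on the strand of the gene. Tlr3 held its match from base -59 to -52 on the opposite strand. In Adar it lay in 1 of 3 windows, that of the most downstream start, from base 30 to 37. That window also held the only match among the 10 to the STAT core TTCNNNGAA, which overlaps it and occurs in 8.30% of all windows. The windows of Cgas, Tbk1, Irf3 and Mavs held none of the 3 motifs. Of the 6 genes that fell, Ddx58 and Ifih1 thus held the full core, and Tlr3 and Adar only the shorter and more common one. Of the genes that rose only Mavs, without a match, had a window searched, none being used for Sting1. The shorter core was searched after the windows had been seen, and all matches are descriptions of letters, not of binding.

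**Figure D1:**
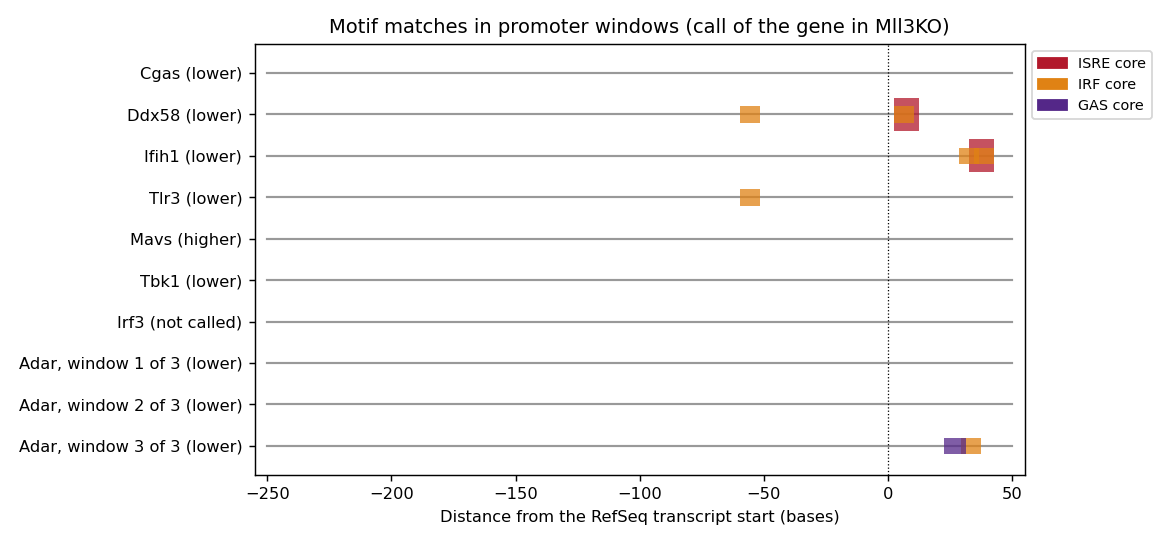
Each grey line is a RefSeq promoter window, with distance from the transcript start in bases on the x axis and the call of the gene in Mll3KO in brackets; coloured blocks are motif matches on either strand. Ddx58 and Ifih1 hold the ISRE core, Tlr3 and 1 of 3 Adar windows hold the shorter IRF core, and the windows of Cgas, Mavs, Tbk1 and Irf3 hold none.

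In the DNA arm the sensor and its adaptor moved in opposite directions. Cgas (ENSMUSG00000032344, chromosome 9, 78430518 to 78443237), which encodes the enzyme that makes cyclic GMP-AMP on double-stranded DNA, had 30.4, 25.9 and 32.6 CPM in Mll3KO libraries sg1, sg2 and sg3 and 48.5, 46.5 and 45.2 CPM in Mll3WT replicates 1, 2 and 3. The highest knock-out library lay below the lowest wild-type library. The log2 fold change of Cgas was -0.66 (SE 0.0911, 95% interval -0.84 to -0.48, n = 3 per group, edgeR adjusted p = 6.25e-09), a transcript 1.58-fold lower in Mll3KO. In bulk RNA, fewer cells with a transcript and less of it per cell cannot be told apart.

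Sting1 (ENSMUSG00000024349, chromosome 18, 35733678 to 35740554), the endoplasmic reticulum adaptor that binds the product of cGAS, had 44.1, 45.1 and 49.2 CPM in Mll3KO and 34.0, 30.5 and 31.2 CPM in Mll3WT. Every knock-out library was above every wild-type library. Its log2 fold change was 0.53 (SE 0.0878, 95% interval 0.35 to 0.70, edgeR adjusted p = 5.14e-07), or 1.44-fold higher. Counts of Sting1 per count of Cgas, a ratio that no scaling of libraries can move, were 1.45, 1.75 and 1.51 in Mll3KO and 0.702, 0.656 and 0.690 in Mll3WT.

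All 3 RNA sensors fell, and they had the largest differences of the 9 genes under TMM scaling; with chromosome medians removed Tlr3 (-0.60) had a smaller one than Sting1 (0.84) and Cgas (-0.71). Ifih1 (ENSMUSG00000026896, chromosome 2, 62595618 to 62646255), the helicase MDA5 that binds long double-stranded RNA, had 67.1, 65.6 and 65.9 CPM in Mll3KO and 162, 159.7 and 154 CPM in Mll3WT. The libraries within a genotype were close, with a coefficient of variation of 1.13% in Mll3KO and 2.46% in Mll3WT, and the genotypes were far apart. The gene overlaps the lncRNA gene Gm39839 by 3543 bases, whose reads could be counted with it. Ifih1 was 2.39-fold lower in Mll3KO (log2 fold change -1.26, SE 0.0549, 95% interval -1.37 to -1.15, edgeR adjusted p = 6.88e-28).

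Ddx58 (ENSMUSG00000040296, chromosome 4, 40203777 to 40239825), the helicase RIG-I that binds RNA ends bearing a triphosphate, had 88.0, 85.1 and 82.1 CPM in Mll3KO and 200.0, 193 and 179 CPM in Mll3WT. The groups were again separate, with no knock-out library near the wild-type range. It was 2.25-fold lower in Mll3KO (log2 fold change -1.17, SE 0.0525, 95% interval -1.27 to -1.06, edgeR adjusted p = 2.82e-27). Of all genes tested, 9.78% had a larger difference in size than Ifih1 and 11.3% a larger one than Ddx58. The ratio of the sensors to each other was nearly level, though slightly lower in every Mll3KO than in every Mll3WT library. Ifih1 counts per Ddx58 count were 0.762, 0.771 and 0.803 in Mll3KO and 0.808, 0.827 and 0.859 in Mll3WT.

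Tlr3 (ENSMUSG00000031639, chromosome 8, 45395665 to 45411075), the endosomal receptor of double-stranded RNA, was the least even of the 9. It had 14.3, 21.4 and 19.1 CPM in Mll3KO and 39.1, 35.0 and 31.6 CPM in Mll3WT, from 146 to 248 counts and 293 to 498 counts per library. Library sg1 was the lowest, and the highest knock-out library remained below all wild-type libraries. The log2 fold change was -0.95 (SE 0.116, 95% interval -1.18 to -0.71, edgeR adjusted p = 3.02e-10), and it was -0.81 without sg1.

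**Figure D2:**
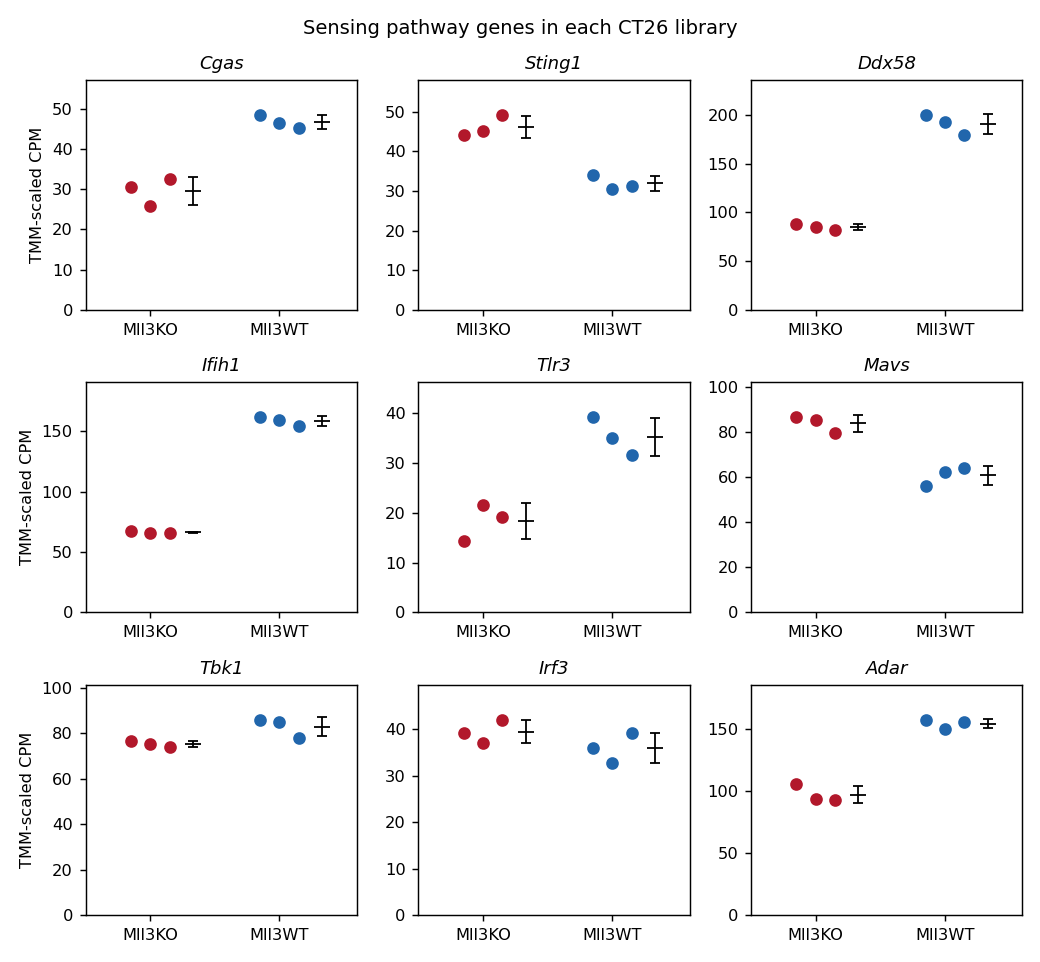
TMM-scaled CPM (y axis, from 0, its own scale in each panel) of the 9 genes in each library, Mll3KO in red and Mll3WT in blue; the bar beside each group is the mean and SD of its 3 libraries. The genotypes do not overlap for 8 genes and overlap for Irf3, and Ddx58 and Ifih1 show the widest gaps.

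Downstream of the sensors Mavs rose, Tbk1 had a call of lower that most alternatives lost or turned, and Irf3 did not pass. Mavs (ENSMUSG00000037523, chromosome 2, 131234063 to 131248025), the mitochondrial adaptor that RIG-I and MDA5 both bind, had 86.5, 85.5 and 79.4 CPM in Mll3KO and 55.9, 62.2 and 64.2 CPM in Mll3WT. All knock-out libraries were above all wild-type libraries, and the log2 fold change was 0.47 (SE 0.0673, 95% interval 0.33 to 0.60, edgeR adjusted p = 1.76e-08), or 1.38-fold higher. Adaptor and sensors thus changed in opposite directions between the genotypes, and their ratios within a library differed between them. Mavs had 0.983, 1.01 and 0.967 counts per Ddx58 count in Mll3KO libraries and 0.279, 0.322 and 0.358 in Mll3WT libraries. Per Ifih1 count it had 1.29, 1.30 and 1.20 in Mll3KO and 0.346, 0.390 and 0.416 in Mll3WT.

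Tbk1 (ENSMUSG00000020115, chromosome 10, 121546455 to 121586794), the kinase on which the routes converge, had 76.7, 75.4 and 74.0 CPM in Mll3KO and 86.0, 85.1 and 78.1 CPM in Mll3WT. The groups were separate by a small margin, and the log2 fold change was -0.14 (SE 0.0626, 95% interval -0.27 to -0.02, edgeR adjusted p = 0.0420). This call was lost or turned in 10 of 16 alternatives. It had an adjusted p of 0.0746 in DESeq2 and 0.101 with the stricter filter. Without either of Mll3WT replicates 1 and 2 and without sg2 or sg3 its adjusted p was 0.140, 0.110, 0.0549 and 0.0789. Scaling by library size only gave a value of -0.02 and upper-quartile scaling gave 0.02, and it did not pass against a 1.2-fold change or at a threshold of 0.01.

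Irf3 (ENSMUSG00000003184, chromosome 7, 44997648 to 45002848), the transcription factor that TBK1 phosphorylates, had 39.3, 37.2 and 42.1 CPM in Mll3KO and 36.0, 32.7 and 39.2 CPM in Mll3WT. The ranges overlapped, and the log2 fold change was 0.13 (SE 0.0901, 95% interval -0.05 to 0.32, edgeR adjusted p = 0.186), an interval that leaves room for a rise of up to 0.32 and a fall of up to 0.05. It passed under upper-quartile factors (0.29, edgeR adjusted p = 0.00434) and under unadjusted library sizes (0.26, adjusted p = 0.0115), which move the median of all genes up by 0.16 and 0.12.

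Of the enzymes that act on nucleic acids, Adar (ENSMUSG00000027951, chromosome 3, 89714469 to 89753455) edits adenosine to inosine in double-stranded RNA and so keeps self RNA from MDA5. Its CPM were 105, 93.0 and 92.8 in Mll3KO and 157, 149.9 and 155 in Mll3WT. No knock-out library reached the wild-type range. Adar was 1.59-fold lower in Mll3KO, with a log2 fold change of -0.67 (SE 0.0538, 95% interval -0.78 to -0.56, edgeR adjusted p = 1.67e-16). Counts are per gene, so the interferon-inducible and constitutive isoforms of Adar are not separated, and the gene shares 8 bases with Chrnb2, whose log2 fold change was -0.71.

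**Figure D3:**
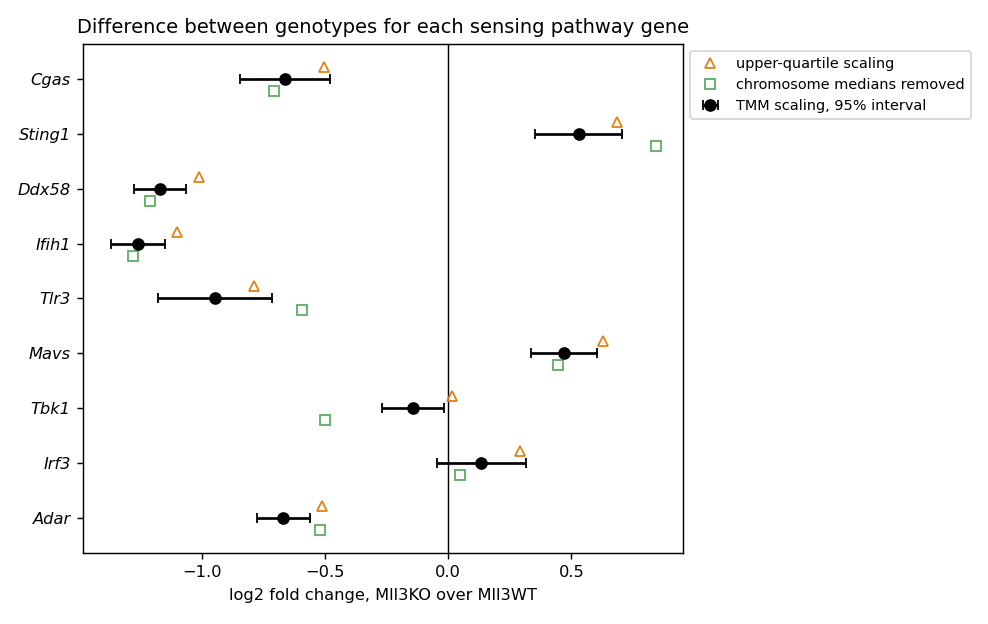
Log2 fold change, Mll3KO over Mll3WT (x axis), of the 9 genes (y axis, by role), as filled points with 95% intervals from the edgeR fit on 3 libraries per group; open triangles use upper-quartile scaling and open squares remove chromosome medians. Ifih1, Ddx58, Tlr3, Adar and Cgas stay below 0 and Sting1 and Mavs above 0 under all 3, while Tbk1 lies on either side of 0.

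The values were set against those of chromosomal neighbours, since whole chromosomes differed between the genotypes (the median log2 fold change was -0.31 over the other 292 tested genes of chromosome 18, -0.35 over 660 of chromosome 8 and 0.36 over 576 of chromosome 10). Ddx58 was lower than all 64 tested genes within 5 Mb, whose median was 0.18, and Ifih1 was lower than all 15 within 5 Mb, whose median was -0.13. The 3 tested genes within 2 Mb of Ifih1 were all called lower as well (median -0.62). Cgas was below 29 of 32 neighbours (median 0.11) and Adar below 110 of 116 (median 0.20). Sting1 stood above 75 of 90 neighbours (median -0.08) and Mavs above 69 of 80 (median -0.09).

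Tlr3, Sting1 and Tbk1 moved most when chromosome medians were removed, which by construction shifts each gene by about the median of its chromosome. With chromosome medians removed the log2 fold change of Tlr3 on chromosome 8 was -0.60 (edgeR adjusted p = 1.22e-05), that of Sting1 on chromosome 18 was 0.84 (adjusted p = 2.03e-12) and that of Tbk1 on chromosome 10 was -0.50 (adjusted p = 5.44e-10). Within 5 Mb, Tlr3 was below 29 of 32 neighbours (median -0.25) and Tbk1 below 24 of 31 (median 0.33). The nearest genes carried less of the shift. Within 2 Mb the medians were -0.01 for Tlr3, 0.03 for Sting1 and 0.07 for Tbk1, and within 10 Mb they were -0.39, -0.09 and 0.24. Irf3 lay in the middle of its region, above 49 and below 63 of 112 neighbours.

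**Figure D4:**
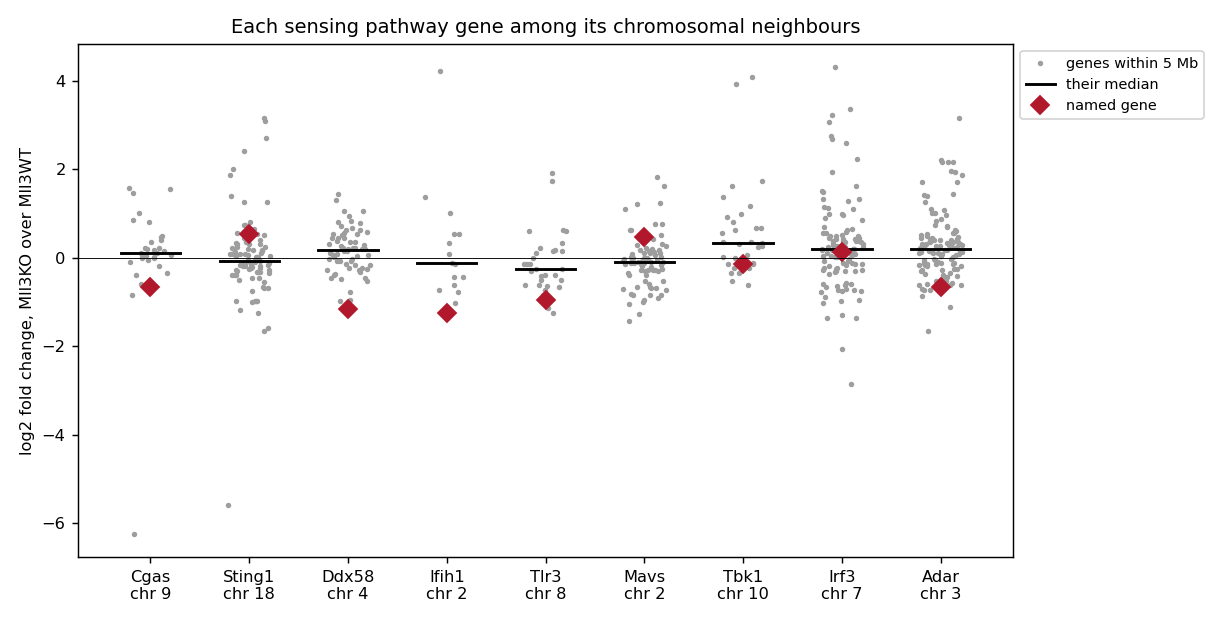
Log2 fold change, Mll3KO over Mll3WT (y axis), of each of the 9 genes (red diamonds) and of the tested genes within 5 Mb of it (grey points, black bar at their median), by gene and chromosome on the x axis. Ddx58 and Ifih1 lie below all of their neighbours, Sting1 and Mavs above most of theirs, and Irf3 near its regional median.

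Genes whose levels over the 6 libraries were most like those of the 3 largest changes were sought among 9137 genes, by the Euclidean distance of centred log2 CPM. Nearest to Ifih1 were Asns, Steap1 and Phf20l1 (distances 0.0577 to 0.0758), to Ddx58 Apol9a, Ccnl1 and Zfp131 (0.0594 to 0.0687), and to Tlr3 Zfp697, Ctdspl2 and Spty2d1 (0.216 to 0.283). With 2 groups that differ at most genes, such likeness mainly records a difference of the same size.

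The other genes of the pathway were counted in 6 lists, of which 174 distinct genes were tested: 42 rose, 95 fell and 37 did not pass. The share called was 78.7%, against 66.2% of all genes, and the median log2 fold change was -0.28. Of these genes, 7 stood on more than 1 list. The counts leaned to falls among sensors and adaptors and were near even among nucleases. Over all genes tested, 33.1% were higher and 33.2% lower. The lists were chosen with earlier results of these data known.

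Among 29 tested DNA sensing partners, 8 rose and 15 fell, with a median of -0.29. The falls include Aim2, Ifi202b, Ifi203, Ifi204, Ifi207 and Mndal, related genes that all lie on chromosome 1. Ifi207 and Ifi204, interferon-inducible genes of the family that also holds Aim2, had log2 fold changes of -2.06 (SE 0.154) and -1.72 (SE 0.0540). Ifi204 averaged 71.4 ± 6.32 CPM in Mll3KO and 234 ± 9.24 CPM in Mll3WT (SD, n = 3 each). These genes are close copies of each other, so reads may be split among them. Ddx41, a helicase reported to sense DNA, averaged 57.8 ± 3.43 CPM in Mll3KO and 58.1 ± 3.27 CPM in Mll3WT (edgeR adjusted p = 0.956).

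Among 28 RNA sensing partners, 3 rose and 20 fell, with a median of -0.40. The upper-quartile factors gave 5 and 16. The falls include Oas1a, Oas1b, Oas1g, Oas2, Oas3, Oasl1 and Oasl2, related genes that all lie on chromosome 5. Oas1c, on the same chromosome, did not pass (0.23, edgeR adjusted p = 0.445), and neither did Dhx58 (0.06, edgeR adjusted p = 0.678). Oas1g and Oas1a, near-identical synthases of the second messenger that activates RNase L, had log2 fold changes of -1.52 (SE 0.0602) and -1.44 (SE 0.0527). Oas1a averaged 72.5 ± 3.94 CPM in Mll3KO and 197 ± 3.35 CPM in Mll3WT, and its separation from Oas1g is uncertain. Ddx1, an RNA helicase, averaged 277 ± 4.92 CPM in Mll3KO and 276 ± 0.383 CPM in Mll3WT (edgeR adjusted p = 0.884).

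Of 57 adaptors, ubiquitin ligases and kinases, 14 rose and 33 fell, with a median of -0.28. Usp18, which removes ISG15 from proteins and dampens the interferon receptor, averaged 107 ± 4.74 CPM in Mll3KO and 282 ± 19.1 CPM in Mll3WT (log2 fold change -1.40, SE 0.0489). Mex3c, an RNA-binding ubiquitin ligase reported to act on RIG-I, averaged 70.7 ± 1.21 CPM in Mll3KO and 175 ± 9.19 CPM in Mll3WT (-1.31, SE 0.0545); it lies on chromosome 18. Ripk1, a kinase of death receptor signalling, averaged 34.9 ± 3.22 CPM in Mll3KO and 34.3 ± 4.60 CPM in Mll3WT (edgeR adjusted p = 0.845).

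Of 30 nucleases and modifying enzymes other than Adar, 10 were higher and 12 lower (upper-quartile factors turned this to 12 and 9), with a median of 0.11. The count of rises was near the 33.1% of all genes that were higher. Nudt2, a hydrolase of dinucleoside polyphosphates, rose (log2 fold change 1.06, SE 0.169), averaging 14.9 ± 1.55 CPM in Mll3KO and 7.07 ± 1.32 CPM in Mll3WT. Cmtr2, a methyltransferase of the mRNA cap, fell (-0.91, SE 0.0951), averaging 22.8 ± 0.687 CPM in Mll3KO and 43.1 ± 1.87 CPM in Mll3WT. Relative to the median of chromosome 8, where it lies, the value of Cmtr2 was -0.56. Mov10, an RNA helicase, averaged 34.4 ± 1.45 CPM in Mll3KO and 32.0 ± 2.16 CPM in Mll3WT (edgeR adjusted p = 0.328), but it passed as higher under 3 alternatives, with values of 0.23 to 0.26. Without sg1 the nucleases that rose were 6.

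Of 13 tested genes that serve endosomal receptors, 6 rose and 4 fell (upper-quartile factors gave 8 and 3), with a median of 0.14. Of the 21 genes listed, 8 were not tested. Among these were the receptor genes Tlr7, Tlr8, Tlr9 and Tlr13, and also Unc93b1 and Tasl, so none of these Tlr genes was compared. Myd88, the adaptor of the endosomal receptors other than TLR3, fell (log2 fold change -0.79, SE 0.0820), averaging 35.9 ± 2.93 CPM in Mll3KO and 61.7 ± 4.94 CPM in Mll3WT. Slc15a4, a lysosomal transporter that carries the adaptor TASL, fell as well (-0.57, SE 0.102), and Ap3b1, a sorting subunit, averaged 103 ± 7.38 CPM in Mll3KO and 102 ± 3.43 CPM in Mll3WT (edgeR adjusted p = 0.887).

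At the output end, 2 of 24 tested early targets of IRF3 and interferon rose (Ifit2 and Ifi27) and 15 fell, with a median of -0.68. The split was the same under the 3 other scalings. Of the falls, Mx1 averaged 0.804 ± 0.194 CPM in Mll3KO and 2.32 ± 1.08 CPM in Mll3WT. Its Mll3KO level was near the floor of the filter on low counts. It thus passed mainly through Mll3WT libraries, which favours a call of lower. With the stricter filter 2 of 22 rose and 14 fell. Of the 31 genes listed, 7 were not tested. Among these were the interferon genes Ifnb1, Ifna4, Ifnl2 and Ifnl3, so the counts describe downstream genes and not interferon itself. Ifi44, an interferon-induced gene, averaged 98.6 ± 4.14 CPM in Mll3KO and 495 ± 32.4 CPM in Mll3WT (log2 fold change -2.33, SE 0.0465). Mx2, an interferon-induced GTPase, averaged 9.63 ± 1.46 CPM in Mll3KO and 28.0 ± 1.25 CPM in Mll3WT (-1.55, SE 0.133), and Gbp2, another induced GTPase, averaged 25.8 ± 4.50 CPM in Mll3KO and 27.7 ± 1.44 CPM in Mll3WT (edgeR adjusted p = 0.460). Without sg2 the targets that rose were 1.

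**Figure D5:**
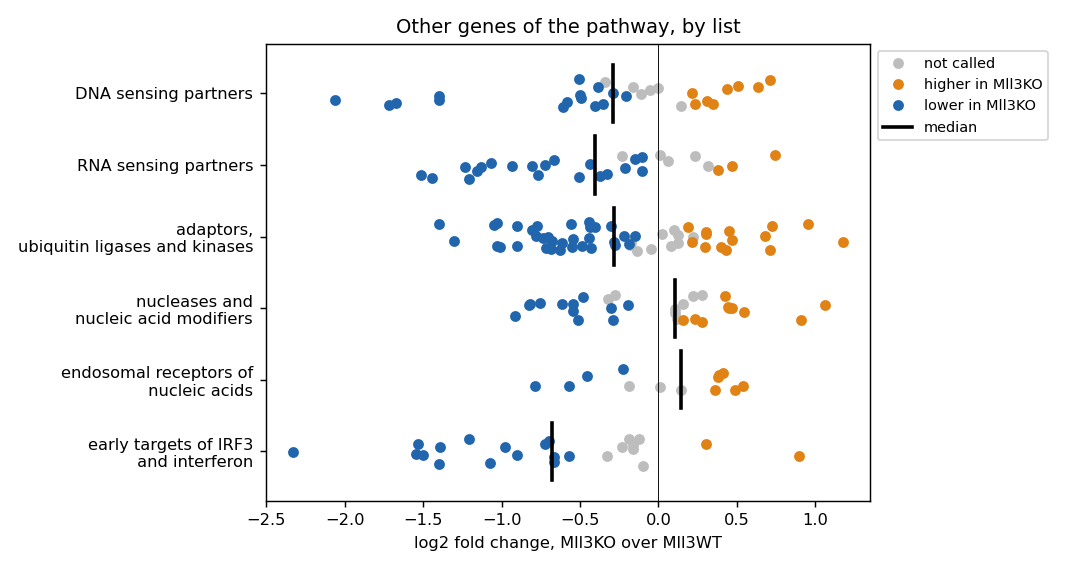
Log2 fold change, Mll3KO over Mll3WT (x axis), of the tested genes of 6 pathway lists (rows), coloured by call (edgeR adjusted p under 0.05), with the list median as a black bar; some genes stand on more than 1 list. Falls outnumber rises in the sensing, adaptor and target lists, whose medians run from -0.68 to -0.28, and the nuclease and endosomal lists straddle 0.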

How the data were processed

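The authors deposited raw read counts, whole numbers keyed by Ensembl gene identifier, in a single table. The libraries were strand-specific, per the labels' protocols. Per the submitters' processing notes, fastp, STAR and HTSeq were among the tools, with build mm10; how strand was handled in counting is not given in the sources used here, nor are roles, versions or the annotation. Each listed gene was above 0 in at least 3 libraries. Symbols were found for 17650 of 17718 identifiers, and positions came from RefSeq on GRCm38.p6 by symbol.

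Genes were filtered with filterByExpr (minimum count 10, minimum total 15), scaled with TMM and tested with edgeR's quasi-likelihood test under R 4.3.3 with limma 3.58.1 and edgeR 4.0.16. Dispersions were estimated robustly, and p-values were adjusted across the 13013 genes by Benjamini and Hochberg's method. SE came from the F statistic. 1 count was 0.0746 to 0.105 CPM. The fit was tested on simulated data. Library pairs within a group differed by 2.16 to 3.87 times the variance of counting alone, so none were merged. Separate cultures are not stated, so the p-values reflect only how these libraries vary, possibly for technical reasons.

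The 10 genes, the lists and the tests were chosen with earlier results of these data known. Named genes are the 10, Kmt2c and, per list, the 2 largest called changes and the smallest change (log2 CPM of at least 1, groups of the 2 apart). The shorter IRF core was added after the windows were seen. Levels of different genes are not compared, as no exon or coding lengths were used here. Promoter sequences are from RefSeq (GRCm38.p6). Alternatives were 3 other scalings, 2 filters, DESeq2 1.42.0, limma voom, chromosome medians removed, glmTreat, a threshold of 0.01 and each library left out.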

Additional observations from a re-analysis of the deposited data

How the results depend on the processing

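Of the 9 genes, 7 (all but Tbk1 and Irf3) kept their direction and their call in every alternative run. No paired analysis was possible because the knock-out columns carry no replicate number of the labels, and levels per transcript length were not run, for want of exon lengths in the tables used here. Against a 1.2-fold change, 2872 of all genes were lower, against 4320 in the test against no change. The split of all calls was 5587 higher and 3183 lower under upper-quartile factors, 5266 and 3440 under plain library sizes, and 4301 and 4320 under TMM. RNA sensing partners that rose numbered 3, and 5 with either of these scalings. Leaving out 1 library gave 6 to 10 nucleases higher and 1 to 2 early targets higher, and the median of the nuclease list ran from -0.02 to 0.26 over all alternatives. Tbk1 turned to 0.0157 with upper-quartile scaling. Under upper-quartile factors, plain library sizes and chromosome medians removed, Mov10 gained a call with values of 0.263, 0.227 and 0.256 (edgeR adjusted p = 0.0126, edgeR adjusted p = 0.0309 and edgeR adjusted p = 0.0153). Ap3b1 gained one under the same 3 with values of 0.167, 0.132 and 0.128 (largest edgeR adjusted p = 0.0478). Ddx1 gained one under the first and second with values of 0.164 and 0.129 (largest edgeR adjusted p = 0.00263), as did Irf3. Uncalled values also turned sign. Ddx41 had 0.153 (upper-quartile), 0.117 (library size), 0.0267 (stricter filter) and 0.113 (chromosome medians removed), and -0.0677 to 0.0276 with 1 library left out. Gbp2 had 0.0619, 0.0264 and 0.0550 under the first, second and last of these, and -0.194 to 0.0302 with 1 library left out. With no filter Ddx1 had -0.0094 and Ap3b1 -0.00656; with 1 library left out Ddx1 ran from -0.0142 to 0.0102, Ap3b1 from -0.0427 to 0.0561 and Ripk1 from -0.0755 to 0.113. Beyond the effects of scaling itself, of fewer libraries and of fewer genes tested, the cause was not tested. The fewest counts for any of the 9 genes in a library were 146, for Tlr3, whose libraries were also the least even.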
